A study of Sus scrofa with 6 samples.

Results

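Mitochondrial fatty acid oxidation was followed through 10 enzymes in the backfat of castrated and intact male pigs. They are the carnitine palmitoyltransferases CPT1A and CPT2 and the matrix enzymes ACADM, ACADVL, ECHS1, ECI1, ECI2, HADHA, HADHB and ACAA2. The members were chosen by name: every probe set whose only gene symbol in the platform annotation is one of these 10. That gave 14 of the 24123 probe sets on the array, with all 10 genes present, each found in the RefSeq table (Sscrofa11.1) under the same symbol. Of these, 13 probe sets for 9 genes passed a filter on low signals, which kept the upper 60% of probe sets by mean over all arrays, and CPT2 did not.

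The barrow group held 3 arrays from males whose testes were both removed at 7 days of age under anaesthesia. The boar group held 3 arrays from their intact full brothers. All 30 animals, in 15 sib pairs, were crosses of Pietrain sires and Landrace dams, weaned at 30 days of age and slaughtered at 175 days after free access to feed. The fat was the middle backfat layer at the 6th rib. Each array measured RNA pooled from 5 animals of a kind, so a replicate is a pool and not a pig. The comparison asks how the absence of the testes alters gene expression in subcutaneous fat. Values are linear signal intensities from MAS5, the Affymetrix probe summary, and tests were run on log2(signal + 16). The number of arrays, 3 against 3, limits the precision.

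Long-chain fatty acids enter mitochondria bound to carnitine. CPT1A on the outer membrane makes the carnitine ester, and CPT2 on the inner membrane turns it back into acyl-CoA. In the matrix each round of oxidation dehydrogenates, hydrates, oxidises and cleaves the chain, which releases acetyl-CoA, and isomerases prepare the double bonds of unsaturated chains for this cycle. White fat mainly stores triacylglycerol, and its own fatty acid oxidation is low compared with that of muscle, heart or liver.

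The labelled tissue was checked against adipocyte markers, which were bright on all arrays. Adiponectin, ADIPOQ, a hormone made by adipocytes, had signals of 18954 to 23039 in barrow pools and 21686 to 23053 in boar pools. The fatty acid carrier FABP4 had 15578 to 18764 in barrow pools and 17794 to 19692 in boar pools. Log2 signals correlated between arrays at 0.978 to 0.988 within a group and at 0.975 to 0.983 between groups. The log2 ratio of 3' to 5' control signals, a sign of RNA quality, ran from 1.85 to 2.13 in barrow pools and from 1.99 to 2.13 in boar pools for actin. For GAPDH it ran from 1.09 to 1.44 in barrow pools and from 1.25 to 1.36 in boar pools. Barrow replicate 2 had the lowest ratio for both controls, 1.85 and 1.09.

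None of the 13 tested probe sets passed an adjusted p of 0.05 (limma, Benjamini-Hochberg over 14399 probe sets), where 1.16% of all tested probe sets did (0.701% higher and 0.458% lower in barrows). Before adjustment 4 of the 13 had p under 0.05, against 12.2% of all tested. The differences were small and ran both ways, from -0.33 to 0.35 on the log2 scale, with 5 probe sets above 0 and 8 below, where 46.6% of all tested lay above 0. Their median was -0.03, beside -0.01 over all tested probe sets. ECHS1, ECI1 and the brighter probe set of ECI2 had ratios of 1.25 to 1.28, barrow over boar, with pools that did not overlap. CPT1A, ACADM, HADHA, HADHB and the brighter probe set of ACADVL had log2 differences of -0.17 to 0.04. The dimmer probe sets of ECI2 and ACADVL had -0.33 and -0.32, and ACAA2 had 0.19. Whether the enzymes differ from each other in their response was not tested. With the replicate number as a block ECHS1 and ECI1 passed the threshold, 2 of 13, both higher in barrows, where 2.35% of all tested probe sets did (1.49% higher).

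**Figure D1:**
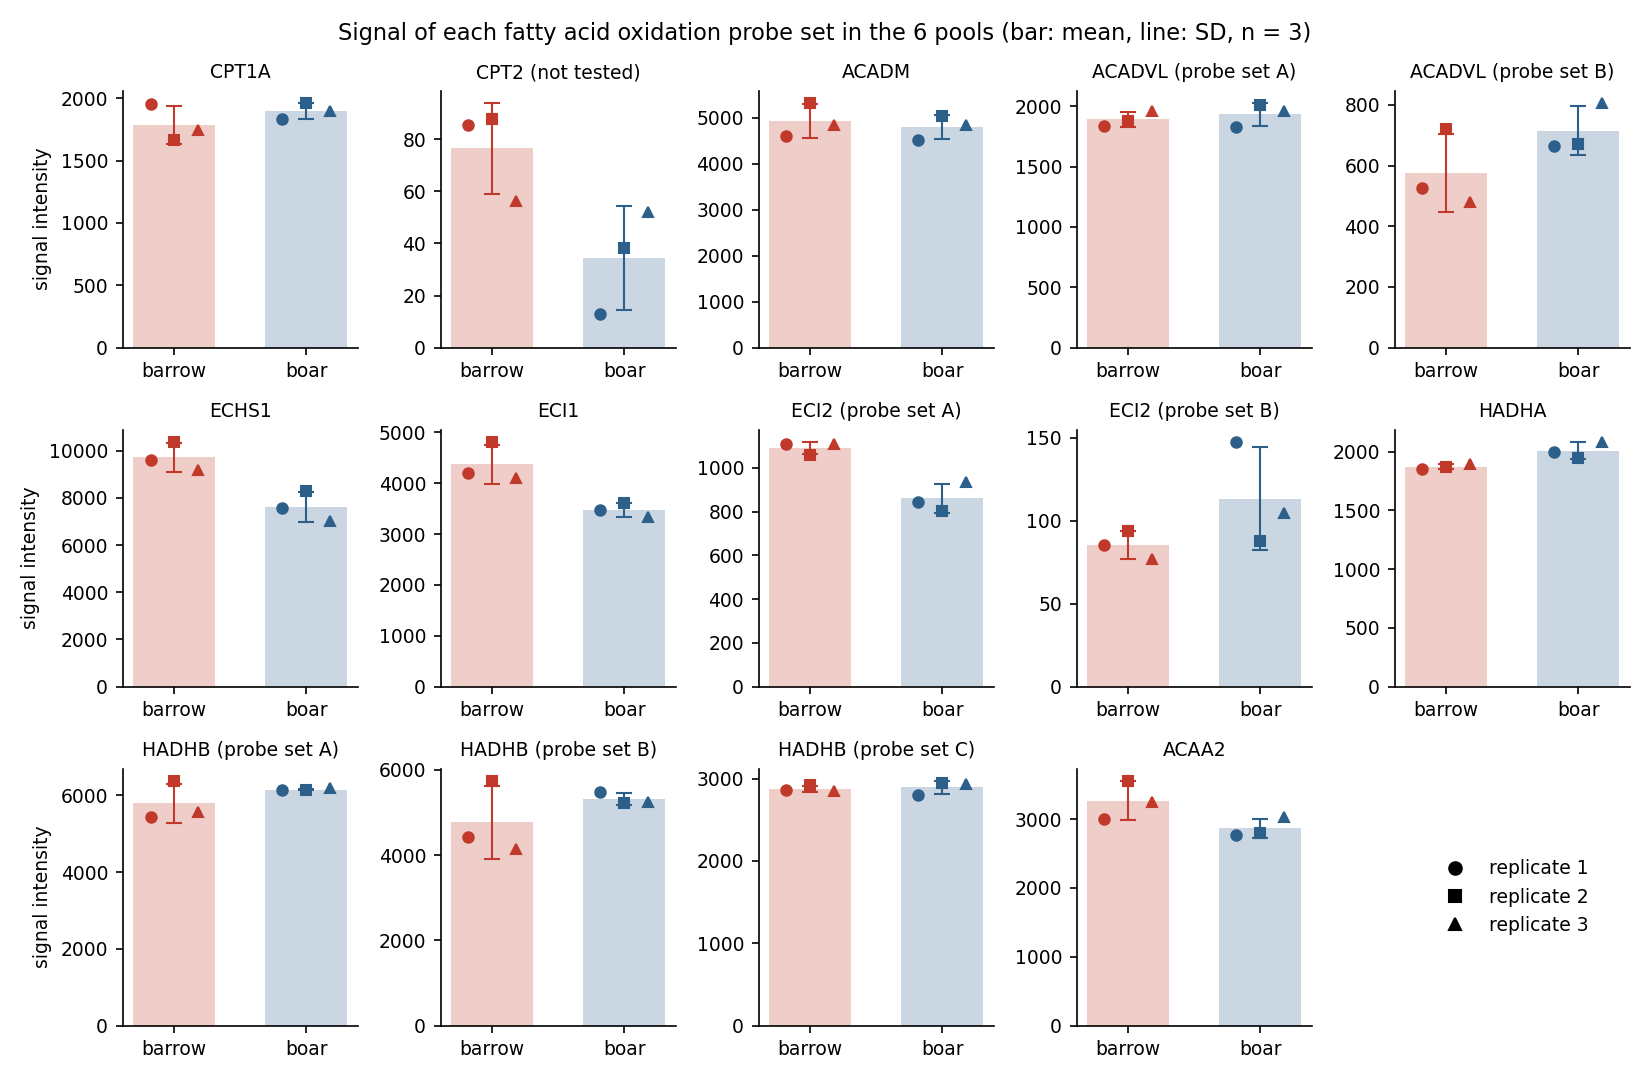
Signal intensity (linear, y axis from 0) of the 14 probe sets in the barrow and boar pools, with bars for the mean, lines for the SD (n = 3) and a marker shape for each replicate number. Where a gene has several probe sets they are lettered from the highest mean log2 signal down. The barrow pools of ECHS1 (9163 to 10379), ECI1 (4093 to 4814) and ECI2 probe set A (1058 to 1108) all lie above the boar pools.

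ECHS1, the enoyl-CoA hydratase of short and medium chains, was measured by 1 probe set. Its signals were 9599, 10379 and 9163 in the barrow pools, against 7560, 8279 and 7024 in the boar pools. The groups did not overlap: the lowest barrow pool lay above the highest boar pool. The mean was 9714 ± 616 in barrows and 7621 ± 630 in boars (SD, n = 3 each), a log2 difference of 0.35 with a standard error of 0.08. That is a ratio of 1.28 (95% CI 1.13 to 1.44, limma adjusted p = 0.071 without a block and 0.018 with the replicate number as a block). The difference between pools of the same number was nearly constant, at 0.34, 0.33 and 0.38 on the log2 scale for numbers 1, 2 and 3. ECHS1 was also past the threshold with array weights (adjusted p = 0.028), with quantile normalization (adjusted p = 0.049) and when boar replicate 2 was left out (log2 difference 0.41, adjusted p = 0.045). Over all 15 alternatives the limma adjusted p of ECHS1 ran from 0.018 to 0.31 and the log2 difference from 0.29 to 0.41.

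ECI1, the mitochondrial isomerase that shifts the double bond of unsaturated enoyl-CoA, was also measured by 1 probe set. It had 4207, 4814 and 4093 in the barrow pools, against 3475, 3609 and 3342 in the boar pools. Again all barrow pools lay above all boar pools, and the spread among barrow pools was wider. The means were 4371 ± 388 in barrows and 3475 ± 134 in boars (SD, n = 3 each), with a ratio of 1.25 (95% CI 1.11 to 1.42, limma adjusted p = 0.096 without a block and 0.037 with it). With array weights the adjusted p was 0.046. The same-number differences were 0.27, 0.41 and 0.29 on the log2 scale, the greatest in number 2. Over 15 alternatives the log2 difference of ECI1 ran from 0.26 to 0.37 and its limma adjusted p from 0.037 to 0.36.

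ECI2, a related isomerase found in both mitochondria and peroxisomes, had 2 tested probe sets that pointed in opposite directions. Probe set A gave 1107, 1058 and 1108 in the barrow pools, against 843, 804 and 933 in the boar pools, without overlap. Its ratio was 1.26 (95% CI 1.10 to 1.46, limma adjusted p = 0.13 without a block and 0.079 with it), and it passed the threshold under none of the 15 alternatives (lowest adjusted p 0.053). Probe set B gave 85.3, 93.9 and 76.8 in the barrow pools, against 148, 87.8 and 104 in the boar pools. Its groups overlapped, and its log2 difference of -0.33 had a wide interval (95% CI -0.81 to 0.16, limma adjusted p = 0.60). It lay just inside the filter, at a mean log2 signal of 6.82 where the lowest tested mean was 6.76, so it is not shown to stand above background.

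**Figure D2:**
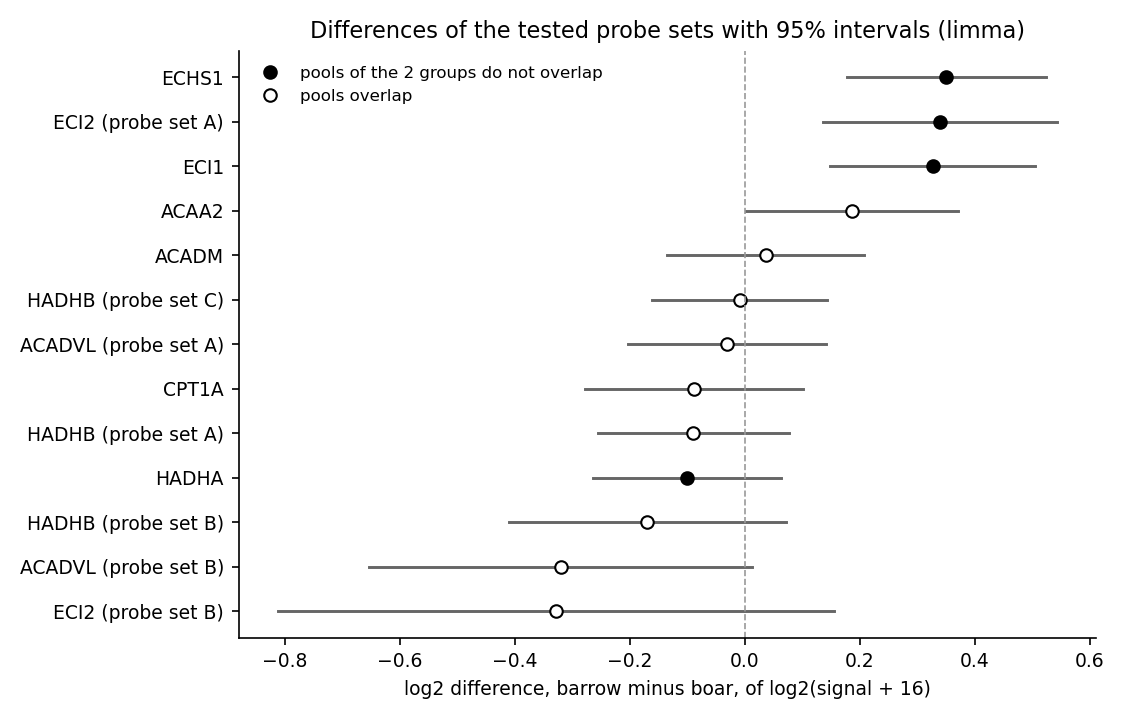
Log2 difference, barrow minus boar, of each tested probe set on the x axis, with its 95% interval from limma. Filled points mark probe sets whose pools do not overlap between groups. ECHS1, ECI2 probe set A and ECI1 lie at 0.33 to 0.35, CPT1A at -0.09 and HADHA at -0.10.

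The 3 probe sets of ECHS1, ECI1 and ECI2 were the ones among 13 whose barrow pools all lay above the boar pools, against 8.38% of all tested probe sets. The reverse order was found in 1 of 13, HADHA, against 9.76% of all tested. HADHA and HADHB are the subunits of the trifunctional protein, which hydrates, oxidises and cleaves long-chain acyl-CoA at the inner membrane. The genes are direct neighbours among protein-coding genes in the RefSeq table (Sscrofa11.1). HADHA, the subunit that hydrates and oxidises, had 1853, 1869 and 1899 in the barrow pools, against 2002, 1945 and 2085 in the boar pools. The gap was small, with a log2 difference of -0.10 (95% CI -0.26 to 0.06, limma adjusted p = 0.65).

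HADHB, the thiolase subunit, had 3 tested probe sets, all with overlapping groups. Probe set A gave 5433, 6380 and 5570 in the barrow pools, against 6142, 6132 and 6180 in the boar pools. Probe set B gave 4416, 5741 and 4145 in the barrow pools, against 5483, 5208 and 5241 in the boar pools. In both, barrow replicate 2 was above every boar pool and the other barrow pools were below every boar pool. Probe set C was nearly level, with 2858, 2921 and 2849 in the barrow pools and 2803, 2949 and 2930 in the boar pools. The log2 differences were -0.09, -0.17 and -0.01 for A, B and C (limma adjusted p = 0.70, 0.59 and 0.98). Probe set C had an interval of -0.16 to 0.14. Without barrow replicate 2 the log2 difference of probe set B was -0.31, and it passed the threshold (limma adjusted p = 0.0498).

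The acyl-CoA dehydrogenases carry out the opening oxidation of each round. ACADM, for medium chains, had 4614, 5329 and 4846 in the barrow pools, against 4519, 5038 and 4854 in the boar pools. The groups overlapped almost fully, with a log2 difference of 0.04 (95% CI -0.14 to 0.21, limma adjusted p = 0.91). ACADVL, for very long chains, had 2 probe sets. Probe set A gave 1839, 1875 and 1958 in the barrow pools, against 1828, 2012 and 1960 in the boar pools, a log2 difference of -0.03 (95% CI -0.20 to 0.14, limma adjusted p = 0.92). Probe set B gave 526, 720 and 481 in the barrow pools, against 666, 671 and 807 in the boar pools. Barrow replicate 2 again stood above the other barrow pools and inside the boar range. Its log2 difference was -0.32 (95% CI -0.65 to 0.01, limma adjusted p = 0.43), in the same direction as that of probe set A.

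ACAA2, the matrix thiolase that cleaves off acetyl-CoA from shorter chains, had 2993, 3556 and 3250 in the barrow pools, against 2772, 2790 and 3025 in the boar pools. The groups overlapped only in barrow replicate 1 and boar replicate 3. The log2 difference was 0.19 (95% CI 0.00 to 0.37, limma adjusted p = 0.41 without a block and 0.26 with it). All 3 same-number differences were above 0, at 0.11, 0.35 and 0.10. This was so in 4 of the 13 tested member probe sets, ECHS1, ECI1, ECI2 probe set A and ACAA2, against 17.5% of all tested. All 3 lay below 0 in 1 of 13, HADHA, against 20.5% of all tested.

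**Figure D3:**
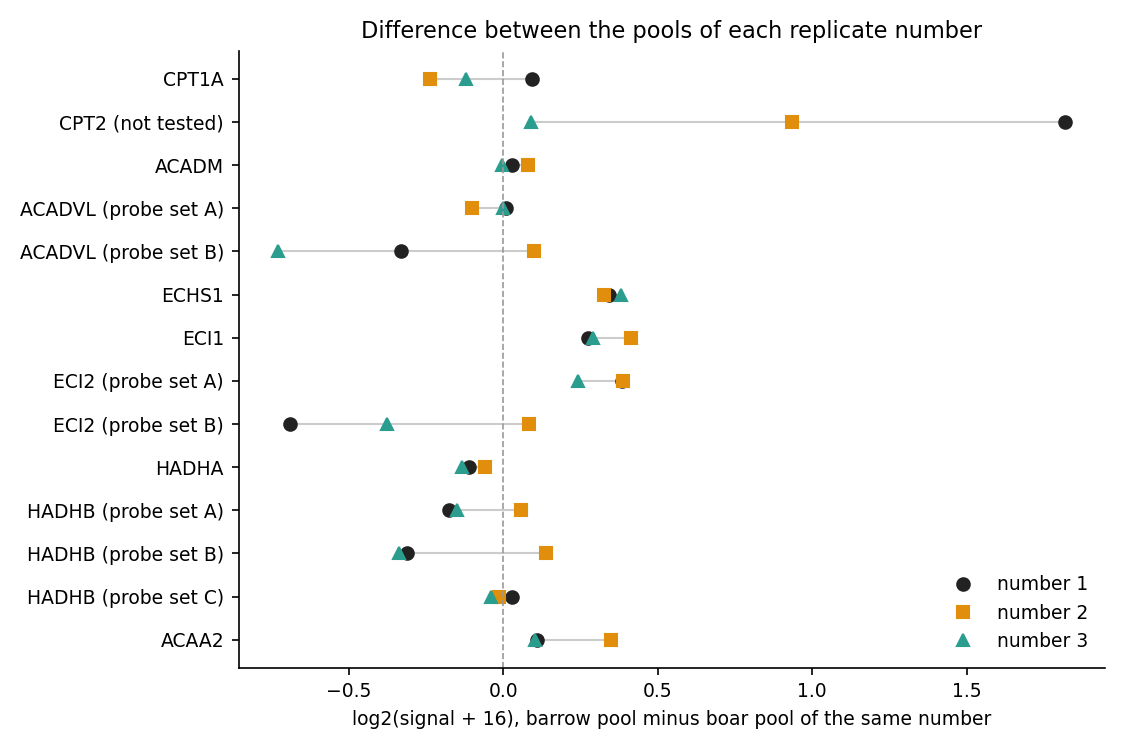
Difference in log2(signal + 16) on the x axis between the barrow and the boar pool of each replicate number, for all 14 probe sets. The points of ECHS1 lie together at 0.33 to 0.38, while those of CPT2 spread from 0.09 to 1.82.

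At the entry step, CPT1A had 1957, 1662 and 1746 in the barrow pools, against 1832, 1963 and 1901 in the boar pools. Barrow replicate 1 lay inside the boar range and the other barrow pools below it. The means were 1788 ± 152 in barrows and 1898 ± 65.6 in boars (SD, n = 3 each), a log2 difference of -0.09 (95% CI -0.28 to 0.10, limma adjusted p = 0.75). It was -0.15 without barrow replicate 1 and -0.04 without barrow replicate 2. CPT2 had 85.3, 87.8 and 56.4 in the barrow pools, against 12.7, 38.3 and 52.1 in the boar pools. Its mean log2 signal of 6.04 fell below the filter, where the lowest tested mean was 6.76, and its signals are not shown to exceed background. Barrow pools were all above boar pools, by 0.09 to 1.82 on the log2 scale between pools of the same number. Without a filter the log2 difference of CPT2 was 0.95 with a limma adjusted p of 0.41.

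To set the entry step against the matrix enzymes, each probe set was centred on its own mean over the 6 arrays, averaged per gene and then per step. The 8 matrix enzymes averaged -0.02, 0.14 and -0.02 in the barrow pools, against -0.04, -0.04 and -0.02 in the boar pools. The barrow pools thus all lay above the boar pools, replicates 1 and 3 by less than 0.01 over the highest boar pool and replicate 2 by 0.16. The difference of group means, 0.07, was close to the pooled SD between arrays of 0.06. ECI2 entered it with 0.0055, the mean of 0.34 in probe set A and -0.33 in the dim probe set B. The matrix mean thus also rests on a probe set not shown to stand above background. CPT1A averaged -0.04 ± 0.12 in barrow pools and 0.04 ± 0.05 in boar pools (SD, n = 3 each). The matrix enzymes minus CPT1A therefore came to 0.16 more in barrow than in boar pools, with a pooled SD of 0.14. With CPT2 counted in the entry step, as planned, the same quantity was -0.36 with a pooled SD of 0.27. The sign was thus set by the dim CPT2 probe set, and the size moved with the pseudocount, to -0.55 with a pseudocount of 1 and -0.15 with 64. These step values were not tested.

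**Figure D4:**
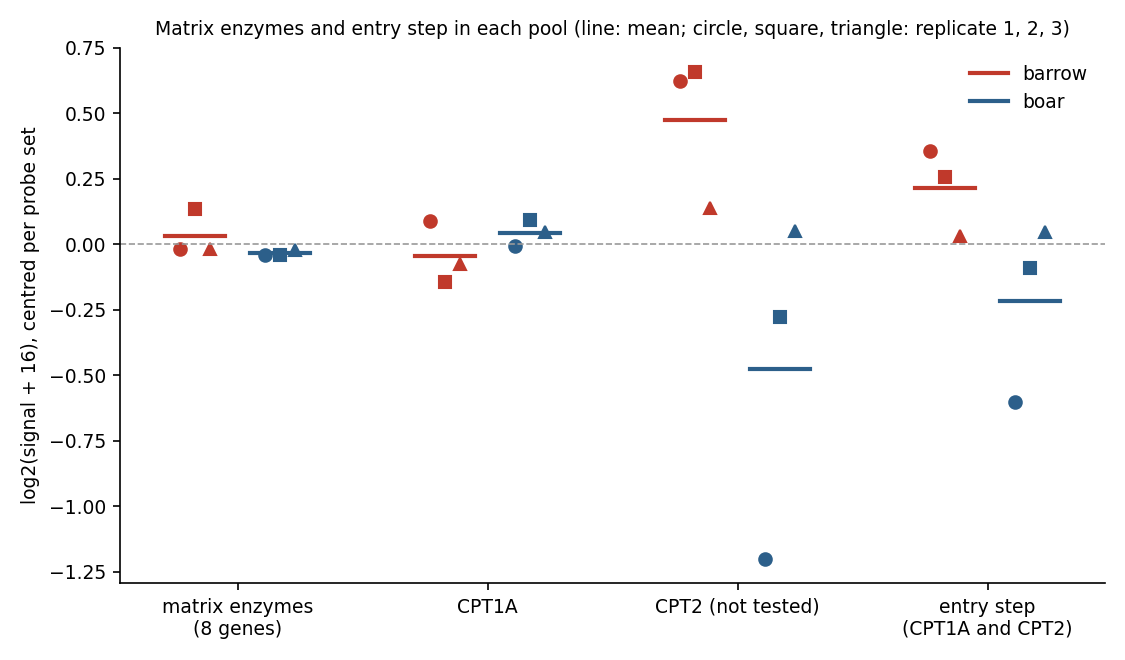
Log2(signal + 16), centred per probe set and averaged per gene and step (y axis), in the 3 barrow and 3 boar pools, with a line for each mean. The matrix enzymes of the barrow pools lie at -0.02, 0.14 and -0.02, and CPT2, which was below the filter, has the widest spread.

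Barrow replicate 2 had the highest signal of the barrow pools in 9 of the 13 tested probe sets, against 35.5% of all tested. It was the lowest barrow pool for CPT1A and ECI2 probe set A. Its control ratios were also the lowest of the 6 arrays, as given above, and their part in these values was not tested. Without it the log2 difference was 0.30 for ECHS1, 0.26 for ECI1 and 0.36 for ECI2 probe set A (limma adjusted p = 0.092, 0.10 and 0.094). The within-group SD of the 13 probe sets on the log2 scale had a median of 0.09 and ran from 0.03 to 0.25, beside a median of 0.15 over all tested probe sets.

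Other genes of the pathway were described from lists, with 1 probe set per gene (that of highest mean log2 signal). Of 23 further genes of mitochondrial oxidation and its electron transfer, 18 were tested, and 0 rose and 0 fell. Their median log2 difference was 0.08, with 13 above 0 and 5 below. HADH, the dehydrogenase of short-chain hydroxyacyl-CoA, had 12708, 13136 and 11794 in the barrow pools, against 10771, 11806 and 9831 in the boar pools, a log2 difference of 0.22 (limma adjusted p = 0.28). DECR1, the reductase that works with the isomerases on polyunsaturated chains, had 0.31 (limma adjusted p = 0.32), from means of 1857 ± 271 in barrows and 1491 ± 167 in boars (SD, n = 3 each). ACADL, a long-chain dehydrogenase, had 0.25 (limma adjusted p = 0.43) and ETFDH, which passes electrons to ubiquinone, 0.12 (limma adjusted p = 0.59, and 0.01 in its other probe set). Without barrow replicate 2 they had 0.11 and 0.06.

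Of 10 genes of fatty acid activation, 4 were tested, and 0 rose and 0 fell, with a median of 0.01. These were the acyl-CoA synthetases ACSL1 at 0.06, ACSL3 at 0.08, ACSL4 at -0.07 and ACSL5 at -0.04 (limma adjusted p from 0.73 to 0.95). The other probe sets of ACSL5 had -0.14 and -0.24 (limma adjusted p = 0.70 and 0.46). Of 17 peroxisomal genes, 10 were tested, and 0 rose and 0 fell, with a median of 0.17 and 7 above 0. ABCD3, a transporter of fatty acyl-CoA into peroxisomes, had 2495, 2741 and 2458 in the barrow pools, against 1924, 1966 and 2164 in the boar pools. Its log2 difference was 0.34 (limma adjusted p = 0.088 unblocked, 0.066 blocked by replicate number and 0.042 with array weights). Over 15 alternatives the adjusted p ran from 0.042 to 0.382. The other probe sets of ABCD3 had 0.44 and 0.54 (limma adjusted p = 0.13 and 0.073 unblocked, 0.047 and 0.044 blocked by replicate number). HSD17B4, which hydrates and oxidises enoyl-CoA in peroxisomes, had 0.21 (limma adjusted p = 0.28). The peroxisomal oxidase ACOX2 had 0.33 and the reductase DECR2 0.26 (limma adjusted p = 0.43 and 0.49), and the other probe set of DECR2 had 0.34 (limma adjusted p = 0.26).

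Of 6 genes of ketone body metabolism, 2 were tested, and 0 rose and 0 fell, with a median of 0.16. OXCT1, which activates ketone bodies for use, had 6426, 7297 and 6719 in the barrow pools, against 5174, 5599 and 5684 in the boar pools. The groups did not overlap, with a ratio of 1.24 (95% CI 1.11 to 1.39, limma adjusted p = 0.083 without a block and 0.036 with it). Its other probe set had a log2 difference of 0.27, also without overlap, and did not pass (limma adjusted p = 0.30 without a block and 0.15 with it). BDH2, the other gene tested, had 0.01 (limma adjusted p = 0.98).

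Of 22 regulators, 12 were tested, and 0 rose and 0 fell, with a median of -0.04. PPARA and PPARGC1A, a nuclear receptor and a coactivator known to induce oxidation genes, lay below the filter. They had no signal above 32.8 in barrow pools or 14.7 in boar pools, and are not shown to exceed background. A probe set of PPARA had 31.3, 32.8 and 24.5 in the barrow pools, against 14.7, 12.4 and 2.85 in the boar pools, without overlap. Groups overlapped in the other probe set of PPARA (means of 8.85 in barrow and 9.37 in boar pools) and in PPARGC1A (17.2 and 4.11). UCP2, a carrier of the inner membrane, had 144, 147 and 128 in the barrow pools, against 226, 216 and 288 in the boar pools. Its groups did not overlap, and its log2 difference was -0.73 (95% CI -1.08 to -0.37, limma adjusted p = 0.067). The limma adjusted p was 0.072 with the replicate block and 0.031 with array weights. Over 14 alternatives it ran from 0.031 to 0.298, and only array weights passed. NCOR1, a corepressor of nuclear receptors, had -0.33 (limma adjusted p = 0.093, 0.051 with the replicate block and 0.041 with array weights). Over 15 alternatives its adjusted p ran from 0.041 to 0.355. The other probe set of NCOR1 had -0.18 with overlapping groups (limma adjusted p = 0.61). The receptor PPARD had 0.47 with overlapping groups (limma adjusted p = 0.50). Leaving out 1 boar pool moved this value to 0.19 (without replicate 2) or 0.78 (without replicate 3). The other probe set of PPARD had 0.49, also with overlapping groups (95% CI -0.25 to 1.23, limma adjusted p = 0.62). It lay near the filter, at a mean log2 signal of 7.075, and is not shown to stand above background. TFAM, which maintains mitochondrial DNA, had -0.13 (limma adjusted p = 0.57). Its other probe sets had -0.40 and -0.25 (limma adjusted p = 0.37 and 0.41). In each probe set of TFAM, the first included, all barrow pools lay below the boar pools. With 1 probe set per gene this order held in 3 of the 12 tested regulators (UCP2, NCOR1 and TFAM), against 9.76% of all tested probe sets. The reverse order was found in 0 of the 12, against 8.38% of all tested.

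Genes of mitochondrial content were read beside the members. The list held 23 symbols, with ATP5A1 and ATP5B entered under both their older and newer symbols. From it 16 genes were tested, and 0 rose and 0 fell, with a median of 0.07 and 10 above 0. The barrow pools were all above the boar pools in 4 of 16, against 8.38% of all tested probe sets, and the summed signal was 80550 to 86940 in barrow pools and 75540 to 78260 in boar pools. VDAC1, the outer membrane channel, had 9818, 9816 and 8683 in the barrow pools, against 8004, 7567 and 6704 in the boar pools, a log2 difference of 0.35 (limma adjusted p = 0.086 without a block and 0.020 with it). The succinate dehydrogenase subunits SDHA and SDHB had 0.30 and 0.27 (limma adjusted p = 0.067 and 0.16 unblocked, 0.040 and 0.11 blocked by replicate number). Their other probe sets did not pass either way: that of SDHA had 0.36 (limma adjusted p = 0.11 unblocked and 0.070 blocked), and that of SDHB had 0.13 with overlapping groups (0.64 unblocked and 0.48 blocked). The other probe set of VDAC1 had 0.39 (limma adjusted p = 0.14 unblocked and 0.047 blocked), and ATP5A1, of ATP synthase, had 0.13 (limma adjusted p = 0.51). The part of mitochondrial content in the differences of ECHS1, ECI1 and ECI2 was not tested.

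**Figure D5:**
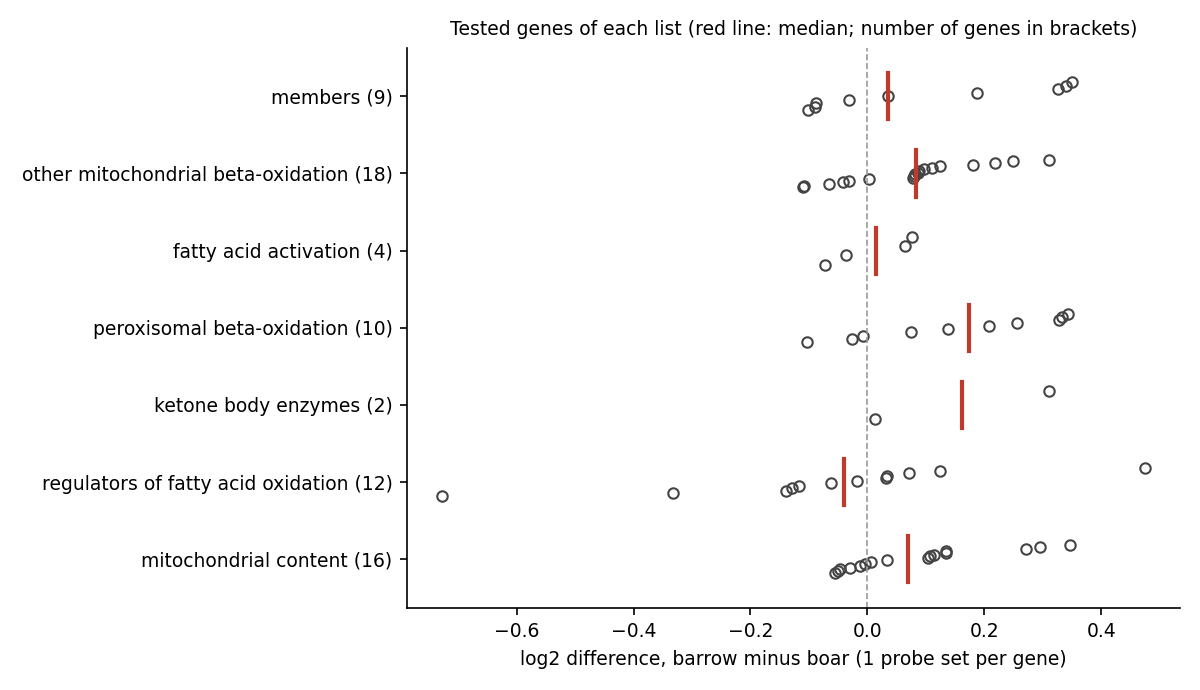
Log2 difference, barrow minus boar, of the tested genes of each list (1 probe set per gene), with a red line at the median. The 9 tested members have a median of 0.04, the peroxisomal genes 0.17 and the mitochondrial content genes 0.07.

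Markers of the other cells in fat were read in the same arrays. In pooled tissue RNA, fewer cells of a type and less RNA per cell cannot be told apart. Of 13 tested endothelial markers 0 rose and 1 fell, the angiopoietin receptor TEK, at -0.47 on the log2 scale (limma adjusted p = 0.047, and 0.011 to 0.25 over 15 alternatives). In all 11 lay below 0, with a median of -0.17. Their summed signal was 16600 to 17250 in barrow pools and 18570 to 19500 in boar pools. Of 9 tested macrophage markers 8 lay below 0 (median -0.23, sums of 8650 to 9880 in barrow pools and 9141 to 11440 in boar pools), and 0 rose and 0 fell. The barrow pools were all below the boar pools in 4 of these 9 (C1QA, AIF1, FCER1G and TYROBP). The same order held in 6 of the 13 endothelial markers, against 9.76% of all tested probe sets. The reverse order was found in 0 markers of either list, against 8.38% of all tested. All 4 tested lymphocyte markers lay below 0, with 0 past the threshold (median -0.27, sums of 406 to 481 in barrow pools and 431 to 606 in boar pools). Of all tested probe sets 46.6% lay above 0. These markers lay near the filter, at mean log2 signals of 6.863 to 7.405, where the lowest tested mean was 6.764. They are not shown to exceed background. Of 9 lymphocyte markers with a probe set the others lay below the filter and ran both ways. Mean signals were 63.7 in barrow and 90.9 in boar pools for CD3D. A probe set of LCK had 101 in barrow and 88.5 in boar pools, with overlapping groups. Another probe set of LCK had 28.7 in barrow and 42.2 in boar pools, with all barrow pools below the boar pools. Among 8 adipocyte markers 1 rose, leptin (LEP), by 0.58 on the log2 scale (limma adjusted p = 0.021, and 0.0067 to 0.14 over 15 alternatives). Their median was 0.05, with 6 above 0 and sums of 76000 to 83420 in barrow pools and 78770 to 83600 in boar pools. Smooth muscle and pericyte markers (8 tested, median -0.04, sums of 14630 to 19170 in barrow pools and 18300 to 20600 in boar pools) had 0 past the threshold. The same held for fibroblast and progenitor markers (10 tested, median 0.06, sums of 29390 to 40270 in barrow pools and 33070 to 38640 in boar pools). Of 18 skeletal muscle markers with a probe set 3 were tested, and 0 rose and 0 fell (median 0.01, sums of 12930 to 17240 in barrow pools and 13580 to 15400 in boar pools). CA3 alone made up most of these sums, with 11404 to 16327 in barrow pools and 12329 to 14224 in boar pools. The sums therefore do not measure the amount of muscle RNA. Blocked by replicate number, 1 macrophage marker (C1QA) and 1 pericyte marker (KCNJ8) fell, and of the fibroblast and progenitor markers FBLN1 rose and DPT fell. The tested skeletal muscle markers were CA3, TPM2 and DES. The intermediate filament DES, also counted among the smooth muscle and pericyte markers, had 106 to 226 in barrow pools and 113 to 135 in boar pools (log2 difference 0.46, limma adjusted p = 0.52). The other skeletal muscle markers lay below the filter, so their signals are not shown to exceed background. Among them the barrow pools were all above the boar pools for the troponins TNNC1 (16.7 to 68.4 in barrow pools and 2.12 to 14.1 in boar pools), TNNT3 (5.60 to 70.6 in barrow pools and 1.74 to 4.58 in boar pools) and TNNI1 (4.66 to 6.93 in barrow pools and 3.77 to 4.57 in boar pools). They were all below for the myosin MYH2, near 0 with 1.05 to 1.49 in barrow pools and 3.14 to 8.75 in boar pools. The groups overlapped for the rest, such as creatine kinase CKM with 59.3 to 92.9 in barrow pools and 82.4 to 83.7 in boar pools. The part of these markers in the members' differences was not tested.

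Over the 6 arrays, the genes whose profile was most like the mean of the 8 matrix enzymes were EPHX2, CDO1, ZCCHC9, TRIP4 and LOC100525232. Pearson's r as the measure of likeness was 0.994, 0.986, 0.985, 0.985 and 0.982, the highest among 5347 genes searched. Their log2 differences were 0.08, 0.18, 0.14, 0.07 and 0.15, all with limma adjusted p of 0.47 or more, and each had its highest signal in barrow replicate 2. The mean of the matrix enzymes, on which they were chosen, was also highest there, while HADHA, both probe sets of ACADVL and of ECI2 and probe set C of HADHB had their highest signal in other pools.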

How the data were processed

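The authors deposited linear intensity values, 1 for each probe set on each array, made with MAS5 per the submitters' processing notes. Its version, its settings and a genome build are not given in those sources. The 2% trimmed means of the arrays were 499.88 to 499.89, and median signals were 162 to 173. Of 24123 probe sets, 10099 had 1 gene symbol, 198 several and 13826 none.

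Here 124 control probe sets were left out and the upper 60% by mean log2(signal + 16) over all arrays, 14399 probe sets with a mean signal of about 92.7 or more, were tested. The groups were compared, barrow minus boar, in limma 3.58.1 under R 4.3.3 (lmFit, eBayes with intensity trend, 2-sided, Benjamini-Hochberg, threshold 0.05), checked on simulated data. Differences on this scale understate changes of dim genes. P-values set the group difference against the spread between pools, as limma estimates it with the intensity trend. They do not cover the spread between single pigs.

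Members and lists were chosen with earlier results of these data known. Named genes were all members, per pathway list up to 4 tested genes with the smallest unadjusted p, and the 5 genes most like the matrix enzymes. Marker genes, PPARA and PPARGC1A were named after their values were seen. Alternatives were the pseudocount (1 and 64), filter, normalization, variance model, replicate block and leaving out each replicate.

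Both groups carry numbers 1 to 3. After removing group means, the correlations of same-numbered pools were 0.12, 0.17 and 0.26, and those of differently numbered pools -0.19 to -0.01. Removing group means makes a pool's covariances with the pools of the other group cancel. A positive same-number value thus forces negative values elsewhere, and the contrast is partly fixed by this step. Since all 3 same-number correlations exceed 0.1, some adjusted p-values are also given with the number as a block. The labels do not say what a number shares. Among members and named pathway genes blocked values are given wherever the block changes the call, and beside some other results. For cell type markers only the changed calls are named. All other values come from the fit without a block.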

Additional observations from a re-analysis of the deposited data

How the results depend on the processing

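Of the 14399 probe sets 167 passed the threshold. The count was 96 without a filter, 32 without an intensity trend, 425 with array weights, 338 with the replicate block and 24 to 291 when 1 replicate was left out (24 without boar replicate 1, 31 without boar replicate 3, 53 and 66 without barrow replicates 1 and 3, 291 without barrow replicate 2). Of the member probe sets 0 passed (4 had an unadjusted p under 0.05), against 1 with quantile normalization, 2 with array weights, 2 with the replicate block and 0 to 1 when 1 replicate was left out. Among members and named pathway genes the block changed only the calls of ECHS1, ECI1, OXCT1, SDHA and VDAC1, in the probe set of highest mean signal. The matrix enzymes minus the entry step, -0.36, became 0.16 with CPT1A alone and likewise with only probe sets past the filter, was -0.55 and -0.15 with pseudocounts of 1 and 64, and ran from -0.49 to -0.17 when 1 replicate was left out. Among the same genes, signs turned for 5 probe sets with small differences, and the cause was not tested. With 1 replicate left out ACADM ran from -0.021 to 0.082 (-0.021 without barrow replicate 2, -0.0071 without boar replicate 1). HADHB probe set C ran from -0.032 to 0.0051, with 0.0043 under median centring. ACSL3 ran from -0.076 to 0.18, ACSL5 from -0.14 to 0.059 and BDH2 from -0.075 to 0.068, with -0.052 under array weights. The depth of MAS5 signals over background is unknown here, which limits CPT2 and ECI2 probe set B most. The call of LEP was lost without barrow replicate 1, boar replicate 1 or boar replicate 3 (adjusted p = 0.091, 0.14 and 0.067) and without an intensity trend (0.11). That of TEK was lost without barrow replicates 1 or 3 or boar replicates 1 or 3 (adjusted p = 0.19, 0.10, 0.25 and 0.23, limma), without a filter (0.068), with median centring (0.070) and without an intensity trend (0.15).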
